A study of Drosophila melanogaster with 12 samples.

Results

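The 14 satellite tandem repeats of the series were every row of the type tandem repeat in the deposited enrichment tables, which hold 203 repeats for the histone mark H3K9me3 and 199 for H3K36me3. All 14 were in both tables and were matched by name. The study profiled both marks by chromatin immunoprecipitation and sequencing (ChIP-seq) in S2 cells, a single cultured line derived from Drosophila melanogaster embryos. Cells received double-stranded RNA against GFP, as control, or against KDM4A, for 5 days with a DOTAP transfection reagent. The labels list 12 libraries in 6 groups of 2, namely H3K9me3 ChIP, H3K36me3 ChIP and input under each treatment. Each table holds 1 mean enrichment per treatment, a linear ratio given to 3 decimals, so every repeat has 4 values and none has a standard deviation, a replicate check or a known depth. All differences below are descriptions without a test. The tables hold no protein-coding gene apart from histones, so neither the depletion of KDM4A nor the cell type was checked.

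Satellites are long arrays of one unit repeated head to tail. They fill much of the heterochromatin around fly centromeres and on the Y chromosome, where H3K9me3 binds the protein HP1a and marks silent chromatin. H3K36me3 marks the bodies of transcribed genes. KDM4A is a Jumonji-domain demethylase that removes methyl groups from H3K36 and, in some family members and settings, from H3K9, and in flies it binds HP1a. The comparison between treatments addressed what loss of this enzyme did to the marks over repeats.

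The unit is spelled out in the row name of 12 members. Of these 9 have a short unit of 5 or 6 bases, and 3 have a unit of 11 or 12 bases. The short units are shown because members that differ by a single letter, or only by the order of their letters, had in some cases very different values. Each is written 5′ to 3′ as the authors' tables name it, with G and C in capitals and A and T in lower case. A number from 1 to 14, by decreasing H3K9me3 in GFP RNAi cells, identifies each member in the plots, and the letters of a line are also the name of that member.
Number 1: aaGGaG
Number 4: aaGaC
Number 5: aaCaC
Number 7: aatat
Number 8: aaaCaC
Number 9: aaGaGG
Number 10: aaGaG
Number 13: aataG
Number 14: aaaaG

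The long units were the dodeca satellite of 12 bases (number 3), its 11-base relative named undeca in the H3K9me3 table (number 2), and a 12-base unit of A and G alone (number 12). Dodeca lies near the centromere of chromosome 3. It holds 8 G or C in 12 bases, or 66.7%, and the undeca unit 7 in 11, or 63.6%. The 2 units differ by 1 inserted base. The 12-base purine unit is 41.7% G+C and contains the AAGAG unit 2 times when repeated in tandem. Members 6 and 11 are 1.688 and 1.686, named by buoyant density in a caesium gradient with no unit spelled, so their unit length is not given here. The 1.688 satellite forms large arrays next to the centromere of the X chromosome. AATAT is known from the Y and the fourth chromosome, and AAGAG from the heterochromatin of most chromosomes. The tables give no coordinates, so these places are background and no array is located here.

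In GFP RNAi cells H3K9me3 over satellites spanned a wider range than over the other repeats. The 14 values ran from 0.172 to 8.19, a 47.6-fold range, with a median of 0.851, against 17.8-fold and 2.36 for the 189 other repeats. The SD of the log2 level was 1.92 over the satellites and 0.745 over the others, a spread over repeats and not over replicates. Enrichment was below 1 at 9 of 14 satellites (64.3%) and at 22 of 189 other repeats (11.6%).

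AAGGAG, a purine-only unit, stood at 8.19 and ranked 1 of all 203 repeats. The G+C-rich undeca and dodeca units followed at 3.67 and 3.17, in ranks 24 and 45. AAGAC was at 2.46 and AACAC at 2.04, near the middle of the table. These 5 were the only satellites above 1 in the control cells.

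The 1.688 satellite at 0.967, AATAT at 0.928 and AAACAC at 0.774 overlapped with the lower values of other repeats. The remaining 6 satellites took the 6 lowest ranks of the table, below Gypsy1-LTR_DM at 0.370, the lowest value of any other repeat. AAGAGG was at 0.351, AAGAG at 0.205 and 1.686 at 0.200. The 12-base purine unit at 0.180, AATAG at 0.176 and AAAAG at 0.172 were lowest.

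H3K36me3 was below the median of all repeats, 0.898, at all 14 satellites in GFP RNAi cells and at all but AAGGAG with KDM4A RNAi. All 14 were below 1 under both treatments, as were 105 of 185 other repeats (56.8%) in GFP RNAi cells. Values ran from 0.037 at AATAG to 0.896 at AAGGAG, with a median of 0.195 against 0.919 for other repeats. In each treatment 9 of 14 lay below the lowest other repeat, DM297_LTR, an LTR retrotransposon row at 0.279 with GFP RNAi and 0.258 with KDM4A RNAi. AAGGAG, undeca and dodeca were the highest of the satellites in H3K36me3 too, at 0.896, 0.607 and 0.673 in GFP RNAi cells. AAGGAG was in the middle of that table, at rank 101 of 199 in GFP RNAi cells and 94 with KDM4A RNAi.

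**Figure D1:**
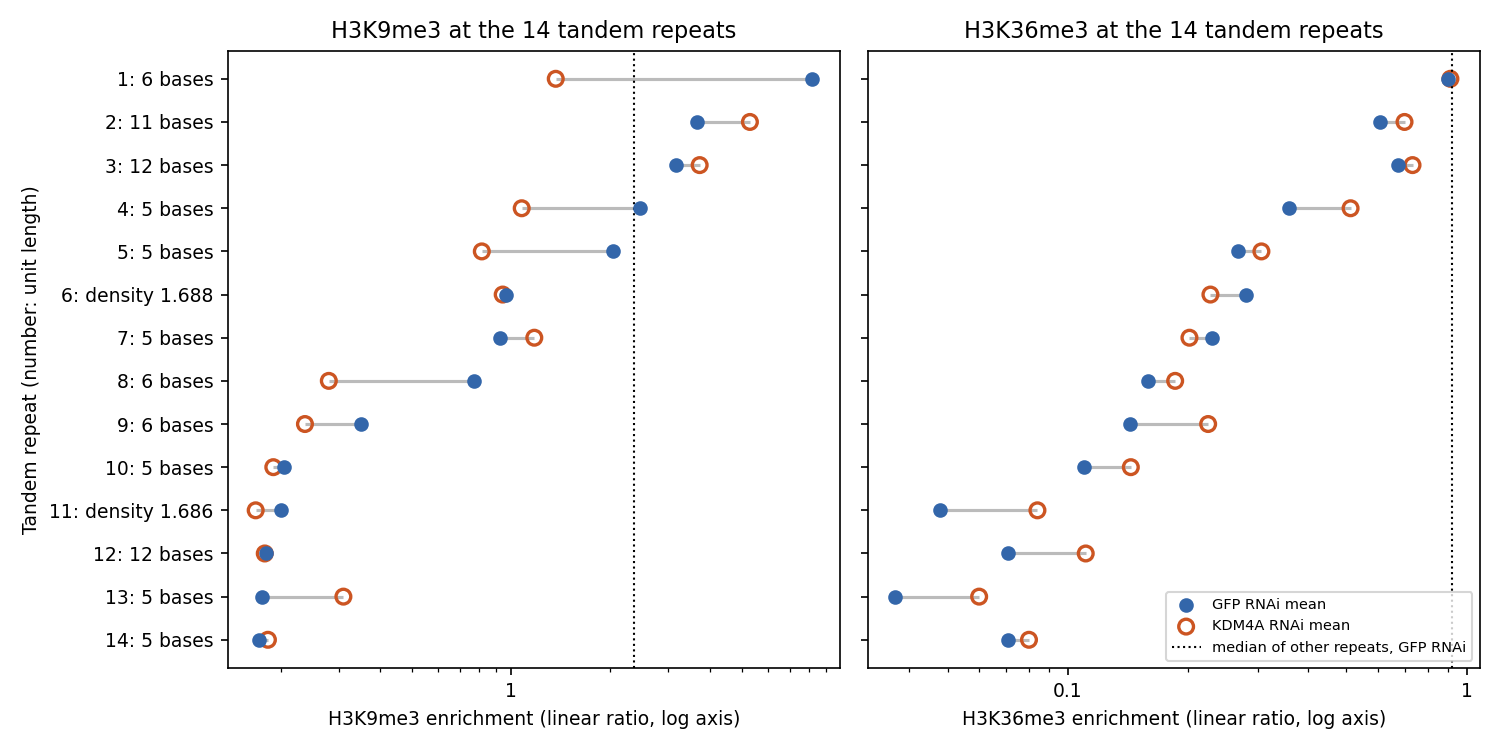
Enrichment of H3K9me3 (left) and H3K36me3 (right) at the 14 tandem repeats, on log axes, with filled points for the GFP RNAi mean, open points for the KDM4A RNAi mean and a dotted line at the median of the other repeats in GFP RNAi cells. H3K9me3 shows long shifts to lower values at numbers 1, 4, 5 and 8, whereas H3K36me3 is to the right of its control at 12 of 14.

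Satellites with more H3K9me3 also had more H3K36me3. Across the 14, Spearman's rho between the levels of the marks was 0.97 in GFP RNAi cells and 0.82 in KDM4A RNAi cells. Across the 185 other repeats present in both tables it was 0.25 under each treatment. These are descriptions of ranks over repeats. The points of a treatment would share input libraries if input was the denominator, which the sources used here do not state, and the part of this in the relation was not tested.

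Units richer in G+C tended to have higher levels of both marks, least so for H3K9me3 in KDM4A RNAi cells. Across the 12 spelled units Spearman's rho with G+C content was 0.59 for H3K9me3 and 0.58 for H3K36me3 in GFP RNAi cells, and 0.39 and 0.70 in KDM4A RNAi cells. Across the 9 short units alone, rho was 0.46 for each mark in GFP RNAi cells. In KDM4A RNAi cells it was 0.10 for H3K9me3 and 0.67 for H3K36me3 over these 9. Units of one composition still differed. AAGGAG and AAGAGG have the same length and the same letters, 3 A and 3 G, in another order, so both are 50% G+C. Their H3K9me3 values in GFP RNAi cells differed 23.3-fold and their H3K36me3 values 6.27-fold. After KDM4A RNAi AAGGAG was at 1.37 and AAGAGG at 0.237 in H3K9me3, 5.76-fold apart.

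Of 66 pairs of spelled units, 19 were of equal length. Among those, 7 differed by a single letter at the best rotation of either strand, all among the 5-base units. Within these pairs H3K9me3 in GFP RNAi cells differed by 1.02- to 14.3-fold, with a median of 1.21-fold. The wide differences involved AAGAC, which was 12.01-fold above AAGAG and 14.3-fold above AAAAG. The AATAT unit was 5.27-fold above AATAG. By contrast AAGAC and AACAC were 1.21-fold apart, and AAGAG and AAAAG 1.19-fold. Pairs of unequal length that differ by 1 inserted base were outside this count. Among them AAGGAG was 39.95-fold above AAGAG, and AAGAGG was 1.71-fold above AAGAG. How reads of such similar units were assigned is not given in the sources used here.

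Between treatments, H3K9me3 was lower by at least 1.5 times with KDM4A RNAi at 4 of 14 satellites. Over all 203 repeats 5 were, or 2.46%, so 1 repeat outside the satellites passed this fold. AAGGAG went from the highest H3K9me3 value of the table to rank 153, with 16.7% of its control value. The 3 others were AAGAC and the related AACAC and AAACAC, which are all of the short units that contain a C on the strand written. The longer undeca and dodeca units also contain C, 3 each, and were higher in H3K9me3.

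The 3 C-containing short units had similar proportions of their control H3K9me3 although their starting levels differed. AAGAC had 43.7% of its GFP RNAi value (2.46 and 1.08), AACAC 40.01% (2.04 and 0.815) and AAACAC 36.2% (0.774 and 0.280). Their log2 ratios lay between -1.47 and -1.19, and the lowest of any other repeat was -0.71. The ranks of the 3 went from 92 to 170, from 126 to 181 and from 187 to 198.

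Transposons that started at the same H3K9me3 level did not show such differences. The repeat nearest to AAGAC was BLASTOPIA_I, at 2.47 and 2.53, and the one nearest to AACAC was GYPSY6A_LTR, at 2.05 and 2.08. TART, a telomeric retrotransposon with the same control value as AAACAC, 0.774, was at 0.706. AAGGAG had no neighbour at its level, the next value being 6.60 at GYPSY8_LTR, the 1 other repeat lower by at least 1.5 times, with 4.04 after KDM4A RNAi.

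AAGAGG lay just outside the threshold, 1.48-fold lower at 0.351 and 0.237. Counting any difference, 9 of 14 satellites were lower in H3K9me3, against 35.5% of all repeats, and 5 were higher, against 64.5%. The 3 lower ones at low level were 1.686 at 0.200 and 0.168, AAGAG at 0.205 and 0.190, and the 12-base purine unit at 0.180 and 0.179. The last pair differs by 1 in the third decimal, and the rounding of the tables allows no difference there. The 1.688 satellite, at 0.967 and 0.943, completed the 9.

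AATAG was the satellite higher by at least 1.5 times in H3K9me3, at 0.176 and 0.310, or 1.76-fold, where the share over all repeats was 0.493%, that is AATAG itself. Its rank of 202 became 196. Both T-containing short units were higher, AATAT being at 0.928 and 1.18, or 1.27-fold.

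The undeca unit was next, 1.44-fold higher at 3.67 and 5.30, which brought it from rank 24 to rank 4 of 203. Dodeca was 1.18-fold higher at 3.17 and 3.73, so both members of this G+C-rich pair were higher. FW3_DM, a non-LTR retrotransposon with the control level of undeca, was at 3.67 and 3.65, and INVADER6_LTR, nearest to dodeca, at 3.17 and 3.27. AAAAG was at 0.172 and 0.183.

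**Figure D2:**
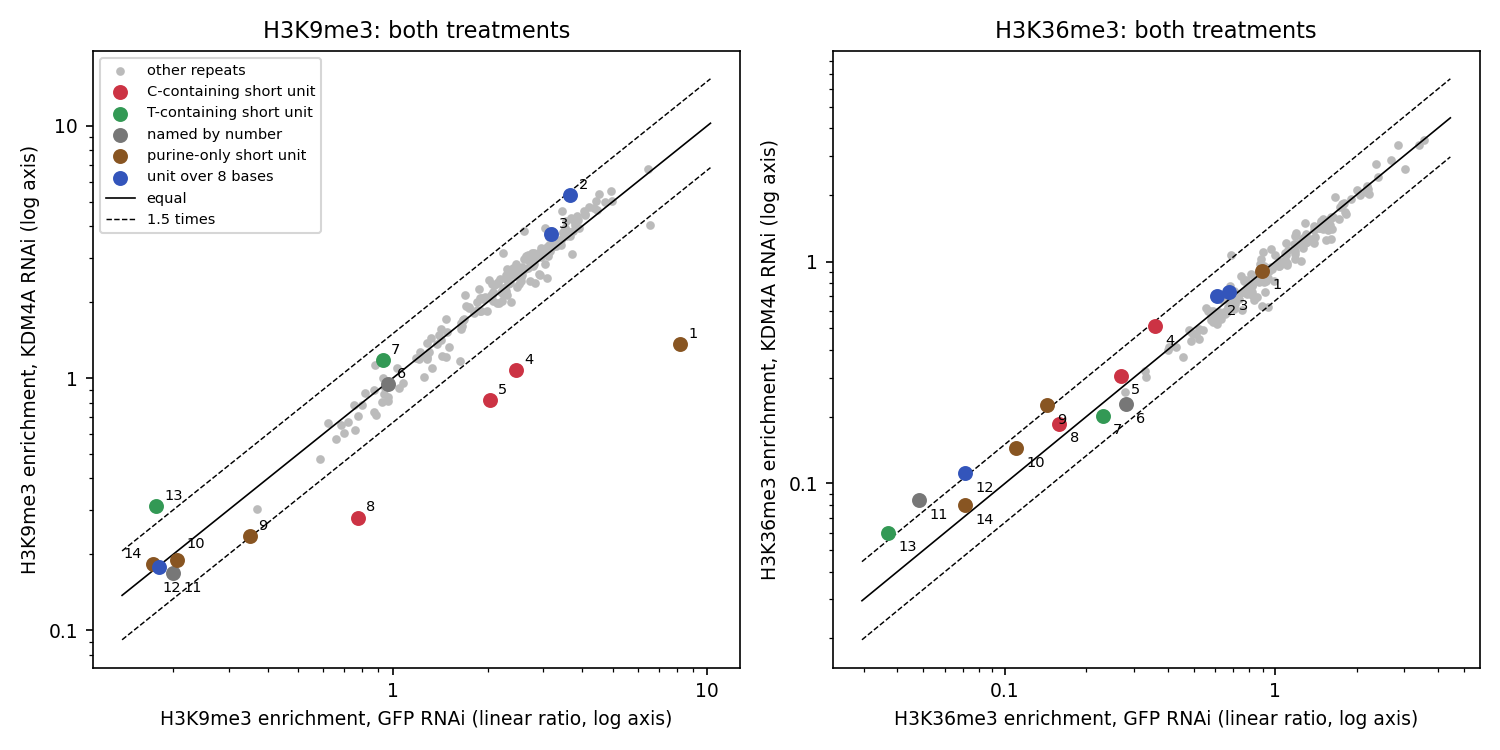
KDM4A RNAi against GFP RNAi enrichment of H3K9me3 (left) and H3K36me3 (right) on log axes, with the other repeats in grey, the numbered tandem repeats in colours by unit class, a solid line of equality and dashed lines at 1.5 times. Numbers 1, 4, 5 and 8 lie below the lower dashed line for H3K9me3, and numbers 9, 11, 12 and 13 above the upper one for H3K36me3.

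The order of the satellites in H3K9me3 differed between treatments. Undeca and dodeca took places 1 and 2 among the 14 after KDM4A RNAi, AAGGAG place 3 and AATAT place 4. Spearman's rho between the GFP RNAi and KDM4A RNAi levels was 0.86 over the satellites and 0.98 over the other repeats. The SD of the log2 ratio was 0.934 over satellites and 0.164 over other repeats, and 5 satellites had log2 ratios outside the range of all 189 others, which was -0.71 to 0.55. The median log2 ratio, -0.07 for satellites and 0.04 for all repeats, does not show this spread.

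H3K36me3 was higher by at least 1.5 times with KDM4A RNAi at 4 of 14 satellites, against 2.51% of all 199 repeats, and none was lower by that much, against 0% of all. The satellites concerned were 1.686 (0.048 and 0.084), AATAG (0.037 and 0.060), AAGAGG (0.143 and 0.225) and the 12-base purine unit (0.071 and 0.111). All 4 had control values under 0.15. Rounding of the third decimal alone allows log2 ratios of 0.67 to 0.73 at AATAG and 0.78 to 0.83 at 1.686, so all 4 stay past the fold.

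AAGAC was just under the threshold, 1.43-fold higher at 0.359 and 0.512, the largest linear difference of the class at 0.153. AAGAG followed, 1.31-fold higher at 0.110 and 0.144. The remaining higher satellites differed by at most 1.17-fold, at AAACAC with 0.159 and 0.186. AACAC was at 0.268 and 0.306, undeca at 0.607 and 0.699, dodeca at 0.673 and 0.732, AAAAG at 0.071 and 0.080, and AAGGAG at 0.896 and 0.911.

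In all, 12 of 14 satellites were higher in H3K36me3, against 33.7% of all repeats, and 2 were lower, against 65.3%. The 2 lower were 1.688, at 0.280 and 0.228, and AATAT, at 0.230 and 0.202. The median log2 ratio was 0.21 over the satellites and -0.05 over all repeats. Dividing each column by its median adds 0.09 to every H3K36me3 log2 ratio and turns the median over all repeats positive. The shares of all repeats given here therefore depend on the scaling of the columns. In linear units the satellites differed by -0.052 to 0.153, within the range of -0.400 to 0.517 seen over the other repeats. DM297_I, the repeat nearest to AAGAC in H3K36me3, was at 0.332 and 0.301.

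Set against each other, the marks as deposited gave 9 satellites with less and 5 with more H3K9me3 relative to H3K36me3 after KDM4A RNAi. The ratio of the H3K9me3 value to the H3K36me3 value was above 1 at all 14 under both treatments, as it was at 168 of 185 other repeats (90.8%). The scaling of one table relative to the other is unknown, so this position relative to 1 is not interpretable by itself. When each column was divided by its median, 10 of 14 satellites (71.4%) and 78 of 185 other repeats (42.2%) were above 1 in GFP RNAi cells.

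With KDM4A RNAi the ratio was at most 0.5 times its control value at 6 of 14 satellites and at 0 of 185 other repeats. For AAGGAG it was 9.14 and 1.499, or 6.1-fold lower. For AAGAC it was 6.86 and 2.10, for AAACAC 4.87 and 1.51, and for AACAC 7.60 and 2.66. AAGAGG, with 2.45 and 1.05, and 1.686, with 4.17 and 2.00, made up the 6.

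The ratio was higher at 5 satellites, AATAT (4.03 and 5.82), undeca (6.05 and 7.58), 1.688 (3.45 and 4.14), dodeca (4.72 and 5.10) and AATAG (4.76 and 5.17). After each column was divided by its median, dodeca and AATAG were no longer higher. Their log2 ratios between treatments were then 0.203 and 0.786 for H3K9me3, and 0.211 and 0.787 for H3K36me3. The median over satellites was 4.44 in GFP RNAi cells and 2.20 in KDM4A RNAi cells, while over other repeats it was 2.36 and 2.51. Among the others 150 of 185 had a higher ratio with KDM4A RNAi, with a median log2 change of 0.12. Dividing each column by its median lowers every such log2 change, by 0.03 through H3K9me3 and by 0.09 through H3K36me3. The count of 150 and the medians above are of deposited values and depend on the scaling of the columns.

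**Figure D3:**
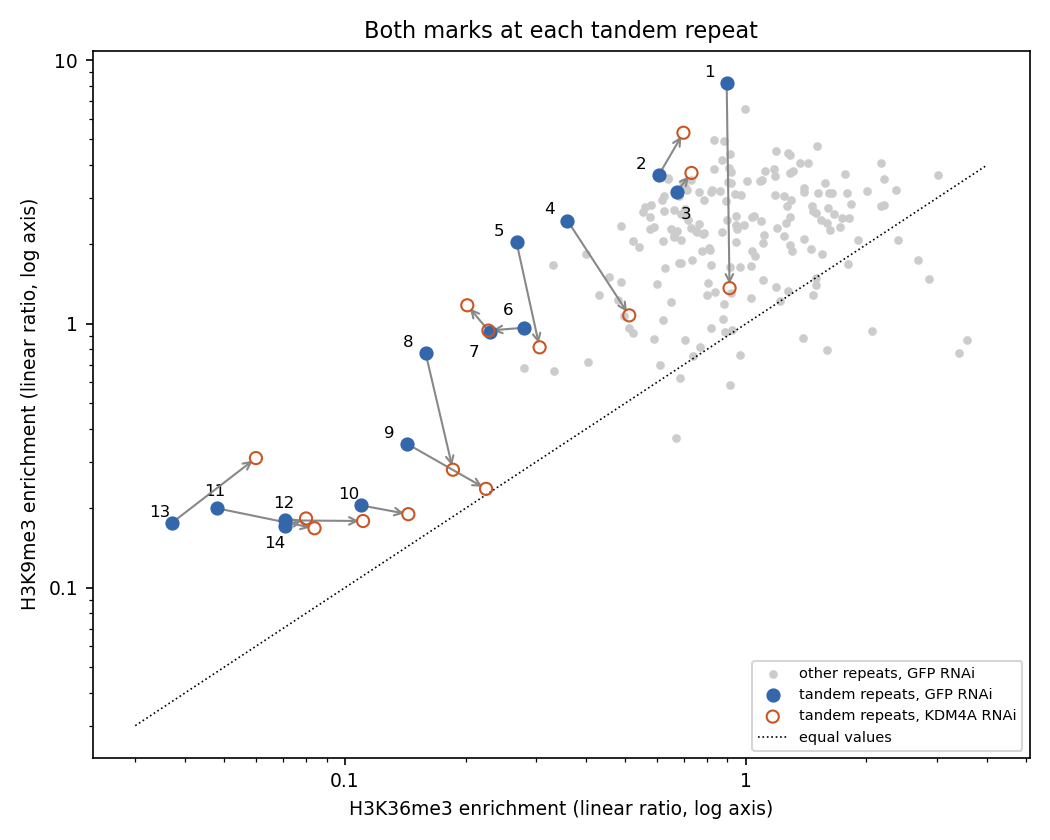
H3K9me3 against H3K36me3 enrichment on log axes, with an arrow for each numbered tandem repeat from its GFP RNAi mean (filled) to its KDM4A RNAi mean (open), the other repeats of GFP RNAi cells in grey and a dotted line at equal values. H3K9me3 is lower at the arrow's tip at 9 repeats, with the longest drops at numbers 1, 8, 5, 4 and 9, and higher at 5, numbers 13, 2, 7, 3 and 14.

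By unit class, the H3K9me3 log2 ratios of the 3 C-containing short units ran from -1.47 to -1.19, and those of the 2 T-containing ones were 0.34 at AATAT and 0.82 at AATAG. The log2 ratios of the 4 purine-only short units ran from -2.58 at AAGGAG to 0.09 at AAAAG. Across the 9 short units, the H3K9me3 log2 ratio and the G+C content had a Spearman's rho of -0.68, but across the 12 spelled units, which include the G+C-rich undeca and dodeca, it was -0.13. For H3K36me3 the corresponding values were 0.22 and 0.00. These are descriptions over units with shared letters. Base composition also affects library amplification and sequencing, and its part in these values was not tested.

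**Figure D4:**
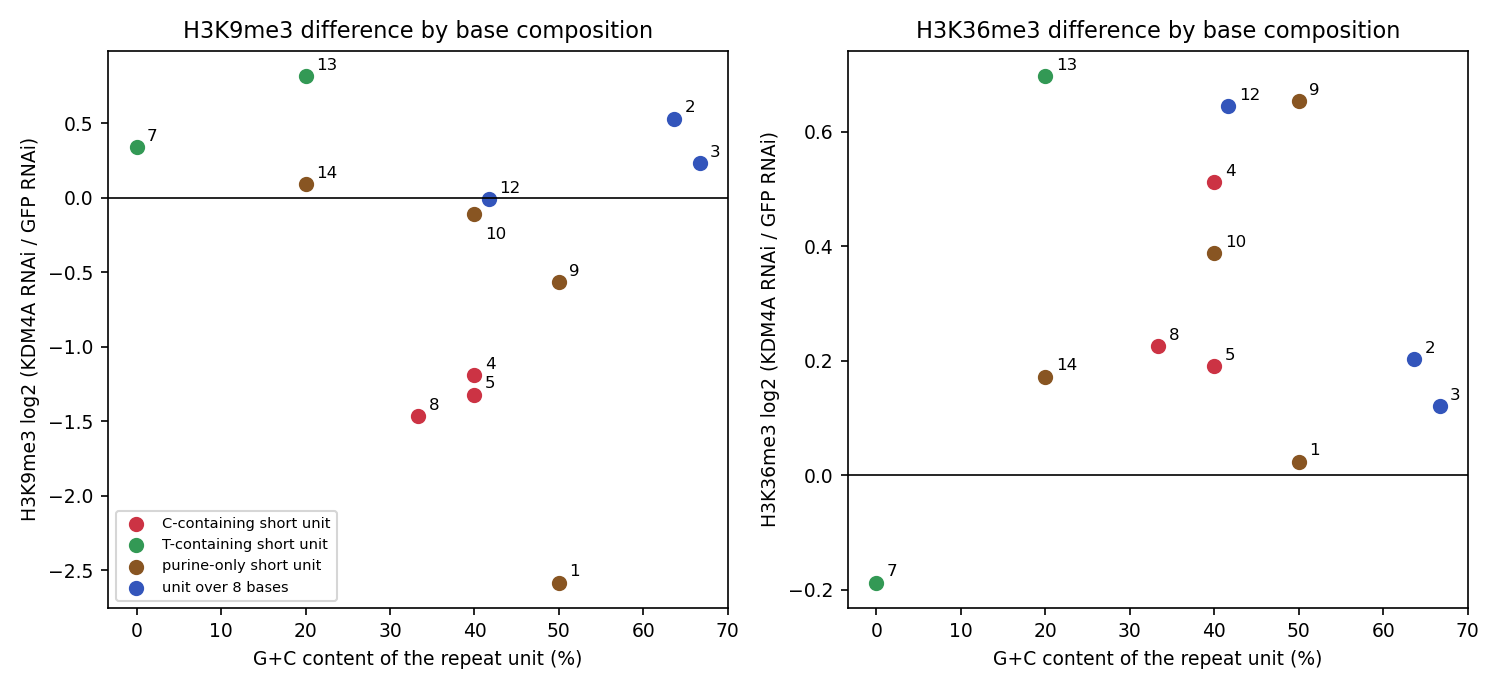
Log2 ratio of KDM4A RNAi to GFP RNAi enrichment against the G+C content of the unit in percent, for H3K9me3 (left) and H3K36me3 (right), at the 12 numbered tandem repeats with a spelled unit, coloured by unit class, with a line at no difference. At 40% G+C the H3K9me3 log2 ratio is -0.11 for number 10 and -1.32 for number 5, so units of one composition differ.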

How the data were processed

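H3K9me3 and H3K36me3 were profiled by ChIP-seq in S2 cells after GFP or KDM4A RNAi. The authors deposited 1 table per antibody, in which each value is an enrichment ratio on a linear scale and a mean per treatment, per the file headers. The submitters' processing notes name Bowtie and MACS2. The genome build, the repeat library, the handling of reads that match many copies, the denominator, the depth scaling and which libraries made each mean are not stated there or in the labels.

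Members were the rows of type tandem repeat, matched after removal of a trailing tandem repeat, undeca repeat, dodeca repeat or repeat from names. Log2 ratios of KDM4A RNAi to GFP RNAi were computed over each whole table with no pseudocount, with ranks, bounds of 0.0005 on each side of a rounded value and unit composition, in Python 3.11.15 with pandas 2.3.3, numpy 2.4.6 and scipy 1.17.1. The computation was checked on simulated data. The planned test needed libraries, and none of the columns is a library, so no p-value is given. Every tandem repeat is named. Other repeats are named as the extremes of a table or as the nearest in control level to a member. Alternatives were pseudocounts of 1 and 0.1, columns divided by their median (centring), means, a level minimum of 0.5, folds of 1.2 and 2, and rounding bounds. Members, unit classes and comparisons were chosen with earlier results of these data known. The unit letters of 11 or more bases are not printed.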

Additional observations from a re-analysis of the deposited data

How the results depend on the processing

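No paired analysis was possible because each table holds 1 mean per treatment, which also prevents leaving out a replicate. Dividing each column by its median changed the direction of 0 of the 28 satellite log2 ratios of a single mark. It changes every H3K9me3 log2 ratio by -0.03 and every H3K36me3 log2 ratio by 0.09. The shares of all repeats that were higher or lower at all were counted on the deposited values only and move with this division. So does the count of 150 of 185 other repeats with a higher ratio of H3K9me3 to H3K36me3. The change in the ratio of H3K9me3 to H3K36me3 turned from higher to lower at dodeca and AATAG. The median H3K9me3 log2 ratio of the 14 (-0.0729) was -0.0179 with a pseudocount of 1, -0.0528 with 0.1, -0.104 centred, -0.395 as a mean and -0.0363 over the 7 satellites at or above 0.5 in both treatments. For H3K36me3 the median (0.215) was 0.0431, 0.160, 0.304, 0.297 and, over 3 satellites, 0.121. A pseudocount shrinks ratios of low values by construction. The 4 satellites lower in H3K9me3 by 1.5 times were 5 at 1.2 times, 4 at 2 times, 5 centred and 4 at the rounding bound. The 1 that was higher became 3 at 1.2 times and 0 at 2 times. For H3K36me3 the 4 that were higher became 6 at 1.2 times, 0 at 2 times and 5 centred, and the 0 that were lower became 1 at 1.2 times. The median ratio of H3K9me3 to H3K36me3 in GFP RNAi cells (4.44) was 1.72 centred. Depth and replicate spread behind every value are unknown.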
